A study of Mus musculus with 14 samples.

Results

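The genes of the proteasome were followed in RNA sequencing of the mouse left ventricle after pressure overload in the presence or absence of a pacemaker channel mutation. Members were chosen by name: every gene of the count table whose symbol starts with Psma to Psmg followed by a number, without the pseudogene names. Of 49315 genes in the table, 50 carried such a name, and 49 had at least 10 counts in at least 2 libraries and were analysed. The remaining member, Psmb11, encodes the thymus form of a catalytic subunit and had no read in 12 of the 14 libraries and 1 read in each of the others. Psmc3ip matches by name only, since its product is a recombination protein and no part of the proteasome; it was kept because the rule takes it, and is named apart.

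The hearts came from male mice that were operated at 10 to 12 weeks of age and examined 5 weeks later. WT mice carry the unmodified Hcn4 gene, while HCN4F mice are a knock-in strain that carries the Hcn4 mutation Y527F, a change that makes the pacemaker channel open more readily and is present in all tissues of the animal. Transverse aortic constriction (TAC) narrows the aortic arch around a needle and loads the left ventricle with pressure, and Sham animals had the operation without the constriction. Among the Sham animals 4 were WT (WT-Sham) and 4 were mutant (HCN4F-Sham), and after constriction 2 were WT (WT-TAC) and 4 were mutant (HCN4F-TAC), each library being 1 animal, and the WT-TAC libraries carry replicate numbers 2 and 3. The study describes 4 animals in every group, so the WT-TAC values below rest on fewer hearts than the others.

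The proteasome degrades proteins that carry ubiquitin chains. Its core particle (20S) is a barrel of alpha rings and beta rings, in which the beta subunits Psmb5, Psmb6 and Psmb7 cut the substrate, and the regulatory cap (19S) recognises, unfolds and feeds in ubiquitinated proteins with a ring of ATPases (Psmc genes) and non-ATPase subunits (Psmd genes). In interferon-exposed and immune cells the catalytic subunits are replaced by Psmb8, Psmb9 and Psmb10 to form the immunoproteasome, and PA28 rings made of Psme1 and Psme2 can open the core in place of the cap. In cardiac muscle the pathway removes damaged and surplus contractile proteins, and it is known as a route of protein turnover during hypertrophic growth.

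**Figure D1:**
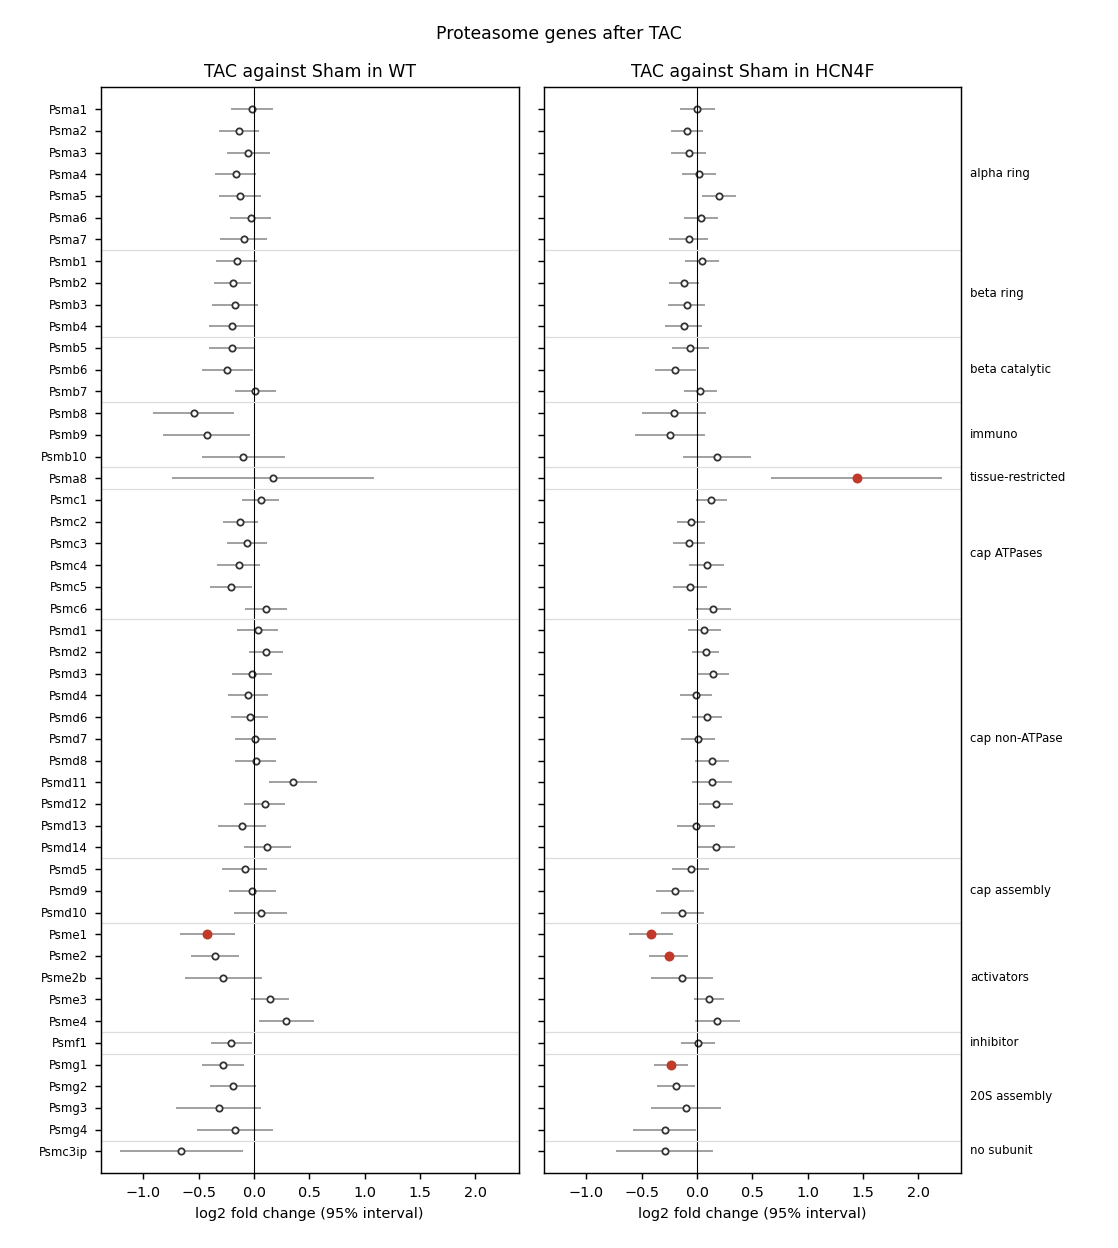
Log2 fold change of TAC against Sham (horizontal axis, with the 95% confidence interval) for the 49 proteasome genes tested (vertical axis, grouped by class), in WT on the left and HCN4F on the right. Filled red points passed an adjusted p of 0.05: Psme1 in WT, and Psme1, Psme2, Psmg1 and Psma8 in HCN4F. The constitutive core and cap subunits lie less than 0.25 from 0, except Psmd11 in WT at 0.35.

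The libraries held 22309914 to 35210939 counts each, of which 13.9% to 23.1% fell on mitochondrial genes and 0.306% to 0.369% on the proteasome genes. Ventricular cardiomyocyte markers (8 genes, none at 0) were abundant in all libraries, with a summed level of 72240 to 74810 CPM (counts scaled to a common library size) in WT-Sham, 64150 to 68510 in HCN4F-Sham, 67040 and 67310 in WT-TAC and 54220 to 61080 in HCN4F-TAC. Of 5 atrial markers, Nppa, a natriuretic peptide gene that ventricular muscle is also known to induce under load, made up 96.4% to 99.7% of the sum, with 69.0 to 182 CPM in the Sham libraries, 195 and 244 in WT-TAC and 410 to 1832 in HCN4F-TAC. The other 4 atrial markers summed to 1.24 to 5.04 CPM in 13 libraries and to 31.1 CPM in HCN4F-TAC replicate 2. Fibroblast markers (6 genes) summed to 578 to 741 CPM in the Sham libraries, 561 and 659 in WT-TAC and 724 to 1263 in HCN4F-TAC. Smooth muscle markers (4 genes) and erythroid markers (5 genes) were lower in both WT-TAC libraries (201 and 215 CPM; 88.2 and 100 CPM) than in WT-Sham (290 to 409 CPM; 101 to 221 CPM). In HCN4F-Sham they summed to 182.7 to 347.5 CPM and 70.87 to 196 CPM. In HCN4F-TAC they summed to 120.5 to 261.4 CPM and 98.89 to 364.6 CPM. Replicate 2 of HCN4F-TAC held the 120.5 and the 364.6 CPM, the lowest and the highest of all libraries. Since these are whole tissue samples, fewer cells of a type and less RNA per cell cannot be told apart, and the part of these shifts in the results below was not tested.

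Most proteasome genes kept close to 1 level across all 14 libraries. Among the 48 members with a mean of at least 1 CPM, the highest library exceeded the lowest by a median of 1.29-fold, and 37 members (77.1%) stayed within 1.5-fold, compared with 41.7% of all 12564 genes with a mean of at least 1 CPM. Here and in the fold changes below, the members were not compared with genes of matched level, and the part of level was not tested. Psmd2, a scaffold subunit of the cap base, was the steadiest at 1.15-fold. The members with the widest spread were Psmb8 at 2.72-fold, Psmc3ip at 2.55-fold, Psmb9 at 2.12-fold, Psmb10 at 1.84-fold and Psme1 at 1.69-fold. These are the 3 immunoproteasome subunits, the name-only match and the alpha subunit of PA28.

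Levels per length of transcript were used to compare genes with each other, as CPM per kilobase (kb) of the principal transcript. In WT-Sham the 14 constitutive core subunits had a median of 77.4 CPM per kb, from 17.05 for the alpha subunit Psma3 to 157 for the catalytic subunit Psmb6. The 17 cap subunits had a median of 46.4 CPM per kb, from 18.3 for the deubiquitinase Psmd14 to 117 for the ATPase Psmc3. Among the immunoproteasome subunits, Psmb9 stood at 4.92, Psmb8 at 7.42 and Psmb10 at 28.9 CPM per kb. Psme1 reached 96.5 CPM per kb, above the median of the core, whereas Psme2b, a close copy of Psme2 whose reads may be shared with it, stood at 5.61. The order from Psma3 to Psmb6 in the core and from Psmd14 to Psmc3 in the cap had the same ends in all 4 groups. Psma8, an alpha subunit known from the testis, was measured with 4 to 23 reads per library and lay far below the other members.

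**Figure D2:**
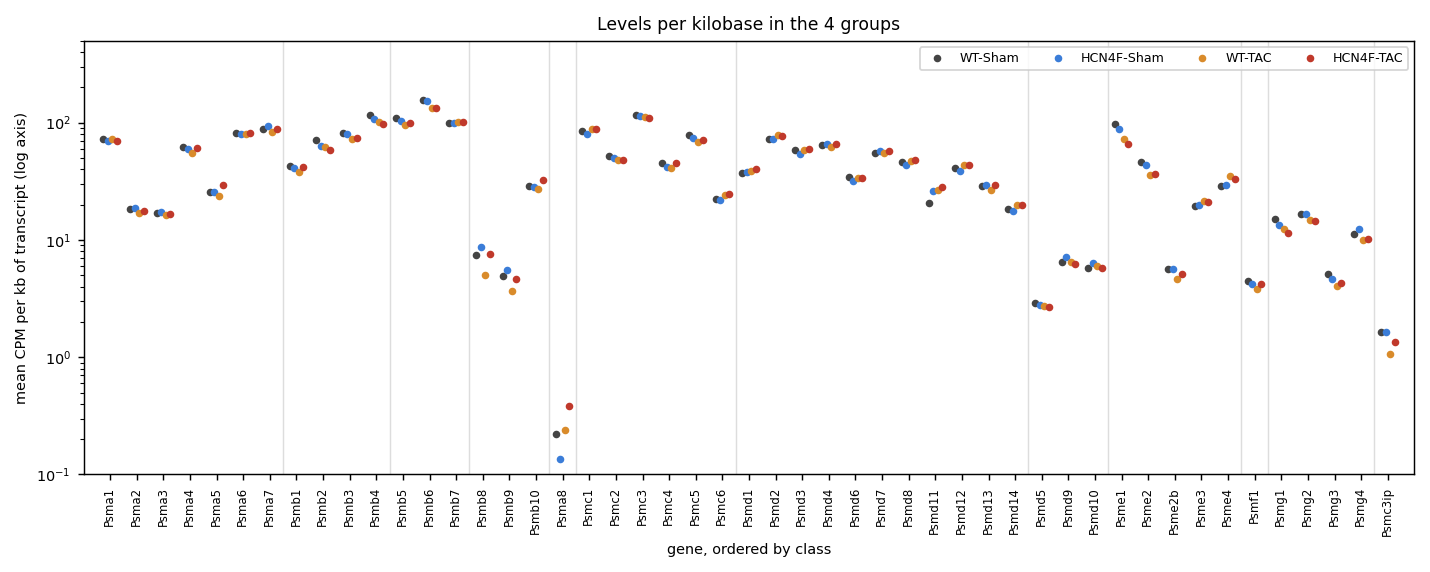
Mean level in CPM per kb of transcript (vertical axis, log scale) of the 49 proteasome genes analysed (horizontal axis, grouped by class) in the 4 groups. The points of the 4 groups lie almost on top of each other for most core and cap subunits, Psmb8 and Psmb9 lie below the core, and Psma8 lies lowest.

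The first comparison asked how pressure overload changed these genes in WT hearts. A single member was lower in WT-TAC than in WT-Sham and none was higher, so 1 of 49 members passed the adjusted p of 0.05, against 4.54% of all 15292 genes tested (2.92% higher and 1.62% lower). That member was Psme1. With library totals alone, with TMM factors from the genes other than mitochondrial ones, or without HCN4F-TAC replicate 2, which enters here through the shared filter, scaling and spread, the single member called was Psmd11, higher, in place of Psme1. In that order, these settings called 3.93%, 3.55% and 3.44% of all genes higher and 0.929%, 1.48% and 1.59% lower. With an added threshold of 1 on the log2 scale in either direction, none of the members and 0.706% of all genes passed. At an unadjusted p under 0.05 there were 12 of 49 members (24.5%) and 22% of all genes. The size of the change was small as well, with a median absolute log2 fold change of 0.14 over the members and 0.19 over all genes, and 39 of 49 members changed by less than 0.25.

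The same comparison in HCN4F hearts called 4 of 49 members, against 13.6% of all genes. Psma8 was the single member called higher, compared with 7.2% of all genes. Psme1, Psme2 and Psmg1 were the 3 members called lower, compared with 6.41% of all genes. At an unadjusted p under 0.05 there were 10 of 49 members (20.4%) and 28.3% of all genes. With the added log2 threshold of 1, Psma8 remained as 1 member, and 2.75% of all genes passed. The median absolute log2 fold change was 0.11 over the members and 0.18 over all genes. When library totals alone set the scale, without TMM normalisation, 8 members were called in HCN4F, of which 7 were higher, among them Psma5, Psmc6, Psmd3, Psmd8, Psmd12 and Psmd14, and Psme1 was the member called lower. Under that scaling 11.9% of all genes were called higher and 3.67% lower, and the median log2 fold change was 0.08 over all genes as over the members, against -0.01 over either with TMM. Without HCN4F-TAC replicate 2, the library with the highest fibroblast markers and the highest sum of atrial markers other than Nppa, 2 members were called in HCN4F, Psma8 and Psme1, beside 8.73% of all genes. The count was also 2 without HCN4F-TAC replicate 1 or 4, HCN4F-Sham replicate 2 or 4, or WT-Sham replicate 2, 3 or 4. Those fits called 9.96% to 13% of all genes.

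Among the members called lower after TAC, Psme1 of the PA28 activator alone held its call under all alternatives, and only in HCN4F. Psme1 encodes PA28 alpha and Psme2 PA28 beta, which assemble into a mixed ring on the end of the core. They lie close together on chromosome 14 of GRCm38, Psme1 at 55578123 to 55581529 on the plus strand and Psme2 at 55587441 to 55591113 on the minus strand. In WT-Sham, Psme1 measured 99.3, 108, 107 and 115 CPM. In HCN4F-Sham its levels were 113, 107, 85.4 and 87.4 CPM. After TAC they were 77.1 and 83.3 CPM in WT and 82.4, 67.8, 72.4 and 72.3 CPM in HCN4F. Every TAC library of either genotype therefore lay below every Sham library, where 20% of all genes separated downward in WT and 7.16% in HCN4F. The fall was 1.34-fold in WT, a log2 fold change of -0.42 ± 0.12 (SE; 95% confidence interval -0.67 to -0.17; adjusted p = 0.049). In HCN4F it was 1.33-fold, a log2 fold change of -0.42 ± 0.09 (interval -0.61 to -0.22; adjusted p = 0.0077). Psme1 was called lower in HCN4F under all 19 alternatives run for it (adjusted p from 0.00048 to 0.033). Its call in WT was made under 6 of 17 alternatives and was lost when any of the 6 WT libraries was left out, with an adjusted p of 0.073 without WT-Sham replicate 3 and 0.254 without either WT-TAC library.

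Psme2 moved in the same direction with a smaller change. Its levels were 43.6, 42.0, 42.2 and 48.5 CPM in WT-Sham and 45.6, 46.3, 37.5 and 39.8 CPM in HCN4F-Sham. In the TAC groups they were 31.5 and 37.3 CPM in WT and 35.6, 34.3, 33.9 and 37.7 CPM in HCN4F. The WT groups did not overlap, a downward separation found in 20% of all genes. In HCN4F the highest TAC library passed the lowest Sham library. The log2 fold change in HCN4F was -0.26 ± 0.08 (SE; adjusted p = 0.0499), which passed by a narrow margin and was lost under 15 of 19 alternatives, among them the fits without any single HCN4F library except HCN4F-Sham replicate 3 (adjusted p from 0.052 to 0.125). In WT it was -0.36 ± 0.10 with an adjusted p of 0.057, which did not pass. It was called in WT under 3 of 17 alternatives, DESeq2 on all groups and edgeR or DESeq2 on the compared groups (adjusted p from 0.019 to 0.034), and leaving out WT-TAC replicate 2 gave -0.24 and leaving out replicate 3 gave -0.48, neither past the threshold. The share of Psme2 in the summed CPM of the pair per kb was 32.2% ± 1.26 (SD, n = 4) in WT-Sham, 33.3% ± 1.16 (n = 4) in HCN4F-Sham, 33.1% ± 1.42 (n = 2) in WT-TAC and 35.7% ± 1.95 (n = 4) in HCN4F-TAC.

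The sequence around the starts of these genes is shown because the interferon response elements that are known to drive PA28 and the immunoproteasome would be looked for there. For Psme1 the stretch is the first 29 bases of the RefSeq transcript, chr14:55578494-55578522 on the plus strand of GRCm38.p6, with the match to the interferon-stimulated response element core in capitals (letters GAAANNGAA, here on the opposite strand, bases 11 to 19). For Psme2 it is chr14:55591114-55591351 on the minus strand, which ends 13 bases before the start and held none of the motifs searched. For Psmg1, the assembly chaperone that was also called lower in HCN4F, it is chr16:95990961-95991210 on the minus strand, with the capitals marking a match to the gamma-activated site (letters TTCNNNGAA) at 243 to 235 bases before the start.
Psme1: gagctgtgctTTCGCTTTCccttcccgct
Psme2: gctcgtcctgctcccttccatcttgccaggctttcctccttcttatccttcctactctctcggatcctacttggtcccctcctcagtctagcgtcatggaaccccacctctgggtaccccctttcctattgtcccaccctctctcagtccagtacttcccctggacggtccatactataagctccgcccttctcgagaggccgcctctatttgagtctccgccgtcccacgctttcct
Psmg1: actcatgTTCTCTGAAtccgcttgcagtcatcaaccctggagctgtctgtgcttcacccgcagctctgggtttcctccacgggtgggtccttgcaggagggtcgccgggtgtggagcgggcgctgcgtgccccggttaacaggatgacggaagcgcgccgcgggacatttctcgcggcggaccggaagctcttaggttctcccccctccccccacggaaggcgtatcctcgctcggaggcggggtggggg
Promoter windows of 250 bases before to 50 after the start were found in RefSeq for 42 of the 50 members, and both strands were searched. The interferon-stimulated element core was present in 7 of the 42 (16.7%: Psmb3, Psmb4, Psmc2, Psmd4, Psmd9, Psme1 and Psmg4) and in 9.76% of all 27025 genes, and in 0 of the 3 immunoproteasome genes. The gamma-activated site was present in 3 (7.14%: Psmb8, Psmd2 and Psmg1) and in 9.55% of all genes. The core of the antioxidant response element (letters TGACNNNGC), which the stress factor Nrf1 and its relatives are known to bind at proteasome genes, was present in 6 (14.3%) and in 14% of all genes. The CCAAT box was present in 35.7% of the members and 41.1% of all genes, and the TATA box (TATAAA) in 9.52% and 15.7%. These matches describe the letters of the windows and say nothing about binding in these hearts.

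None of the other activators was called by the edgeR fit over all groups. Psme3 and Psme4 had positive log2 fold changes in both genotypes and Psme2b negative ones. Psme3 (PA28 gamma), which forms a nuclear ring of its own, measured 49.3 to 56.7 CPM in WT-Sham and 48.0 to 54.8 CPM in HCN4F-Sham. After TAC it measured 56.4 and 58.6 CPM in WT and 55.4 to 59.1 CPM in HCN4F. Its log2 fold changes of 0.14 in WT (adjusted p = 0.303) and 0.11 in HCN4F (adjusted p = 0.302) did not pass. Psme4 (PA200), a large monomeric activator linked to histone degradation, measured 179, 191, 197 and 185 CPM in WT-Sham and 235 and 224 CPM in WT-TAC. Its WT groups did not overlap, an upward separation found in 19.2% of all genes. In HCN4F it ranged from 150 to 220 CPM in Sham and from 203 to 232 CPM in TAC, with overlap. Its log2 fold changes were 0.29 ± 0.12 in WT (adjusted p = 0.158) and 0.18 ± 0.10 in HCN4F (adjusted p = 0.231). In WT it was called higher under 2 of 17 alternatives, edgeR and DESeq2 on the compared groups (adjusted p = 0.012 and 0.0029). Psme2b measured 3.84, 5.30, 4.93 and 4.70 CPM in WT-Sham and 5.50, 4.29, 4.95 and 4.08 CPM in HCN4F-Sham. After TAC it measured 4.19 and 3.58 CPM in WT and 3.81 to 4.69 CPM in HCN4F, overlapping the Sham libraries in both. Its log2 fold change was -0.28 ± 0.16 in WT (adjusted p = 0.335), and it was not called in HCN4F either (adjusted p = 0.540). Over the class, 1 of 5 activators was called lower in WT, beside 1.62% of all genes, and 2 of 5 in HCN4F, beside 6.41%, and the calls of Psme1 in WT and of Psme2 in HCN4F were lost under most alternatives, as given above. Psmf1, which encodes the inhibitor PI31, ranged from 14.2 to 17.5 CPM over all libraries and was called in no comparison of the edgeR fit over all groups.

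**Figure D3:**
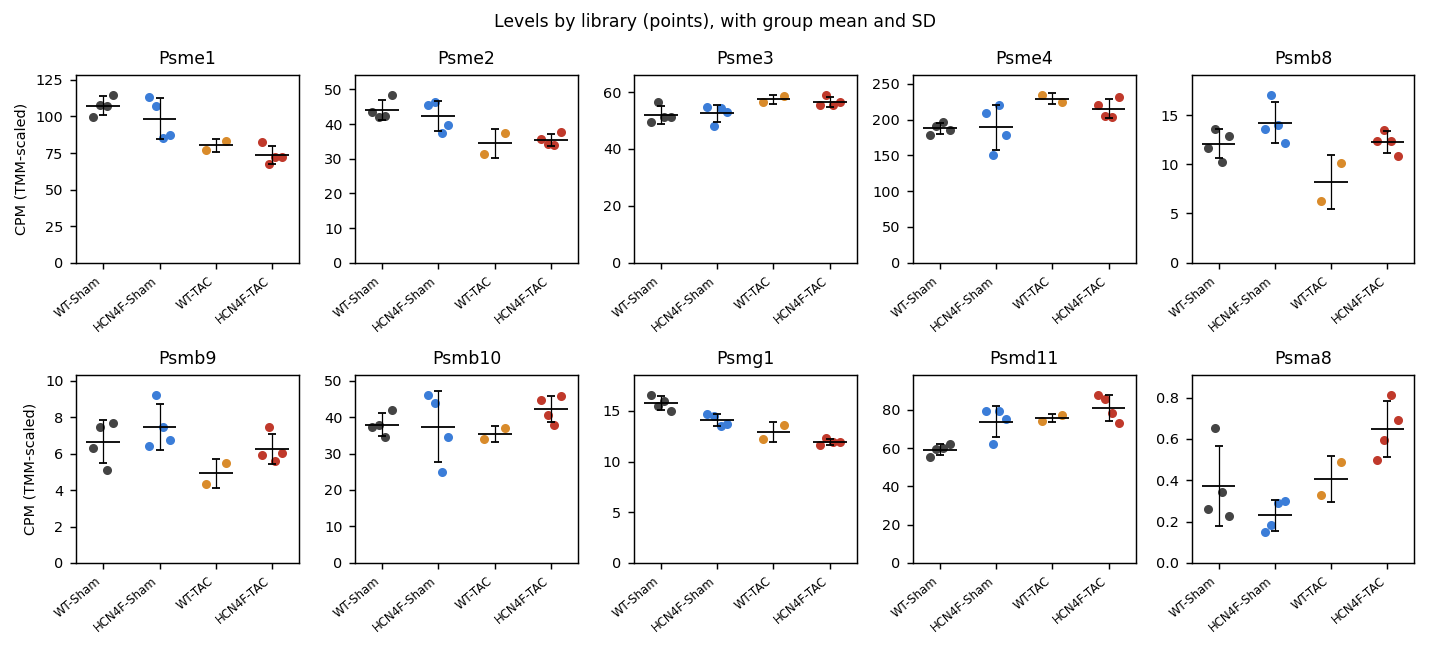
CPM after TMM scaling (vertical axes, from 0) of 10 proteasome genes in each library (points), with group means (long bars) and SD (whiskers), for the 4 groups. All TAC points of Psme1 lie below all Sham points, Psmd11 is lowest in WT-Sham, and Psmb8 is lowest in the WT-TAC libraries.

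The immunoproteasome subunits had no call in any comparison of the edgeR fit over all groups, and each had its lowest group mean in WT-TAC. Psmb8, which takes the place of Psmb5, measured 11.6, 13.6, 10.2 and 12.9 CPM in WT-Sham and 6.28 and 10.1 CPM in WT-TAC. Its WT groups did not overlap, a downward separation found in 20% of all genes. In HCN4F it measured 13.6, 17.1, 14.03 and 12.1 CPM in Sham and 12.3, 13.5, 12.3 and 10.8 CPM in TAC, with overlap. The log2 fold change was -0.55 ± 0.17 in WT (interval -0.92 to -0.18; adjusted p = 0.082) and -0.21 ± 0.14 in HCN4F (interval -0.50 to 0.08; adjusted p = 0.338). Between genotypes after TAC it was 0.57 ± 0.17 (adjusted p = 0.190), and the TAC responses differed by 0.34 ± 0.22 (interval -0.13 to 0.80; adjusted p = 0.669). WT-TAC replicate 2 held the lowest Psmb8 value of all libraries, and the log2 fold change in WT was -0.26 without it and -0.94 without WT-TAC replicate 3. The genotype difference after TAC was 0.28 without WT-TAC replicate 2 and 0.96 without replicate 3, and the difference of the TAC responses was 0.05 and 0.73, none of them past the threshold. The fold change in WT passed the threshold under 3 of 17 alternatives, which were DESeq2 on all groups, DESeq2 on the compared groups and edgeR without a filter on low counts.

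Psmb9, which takes the place of Psmb6, ranged from 5.12 to 7.71 CPM in WT-Sham and from 6.399 to 9.22 CPM in HCN4F-Sham. In WT-TAC it stood at 4.35 and 5.50 CPM, and in HCN4F-TAC at 5.93, 7.47, 5.58 and 6.06 CPM, overlapping the Sham libraries in both genotypes. Its log2 fold changes were -0.43 ± 0.19 in WT and -0.25 ± 0.15 in HCN4F, neither past the threshold (adjusted p = 0.191 and 0.298). A stretch of 212 exon bases overlaps Tap1 on the opposite strand, and whether the counting used strand is not given in the sources used here. Psmb10, which takes the place of Psmb7, measured 34.4 to 42.0 CPM in WT-Sham, 24.98 to 46.04 in HCN4F-Sham, 33.8 and 37.0 in WT-TAC and 37.9 to 45.6 in HCN4F-TAC. Its log2 fold changes were -0.10 ± 0.18 in WT and 0.18 ± 0.14 in HCN4F, and the intervals of both included 0. The value in HCN4F moved with single Sham libraries and was 0.02 without HCN4F-Sham replicate 3, which held the 24.98 CPM, and 0.30 without HCN4F-Sham replicate 1. Leukocyte markers (12 genes, none at 0 in all libraries of a group) summed to 266 to 354 CPM in WT-Sham, 222 to 333 in HCN4F-Sham, 220 and 277 in WT-TAC and 241 to 374 in HCN4F-TAC. The lowest sum belonged to WT-TAC replicate 2, the library with the lowest Psmb8. The next lowest, 222 CPM in HCN4F-Sham replicate 4, came with 12.1 CPM of Psmb8. The part of leukocyte content in the immunoproteasome values was not tested.

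The constitutive catalytic subunits were far more abundant than their replacements and shifted little. Psmb5, the chymotrypsin-like subunit, measured 92.7 to 104 CPM in WT-Sham, 82.7 to 103 in HCN4F-Sham, 86.1 and 84.1 in WT-TAC and 83.7 to 98.2 in HCN4F-TAC. Psmb6, the caspase-like subunit, measured 115 to 135 CPM in WT-Sham, 109 to 139 in HCN4F-Sham, 103 and 109 in WT-TAC and 104 to 117 in HCN4F-TAC. Psmb7, the trypsin-like subunit, measured 112 to 120 CPM in WT-Sham, 107 to 127 in HCN4F-Sham, 112 and 123 in WT-TAC and 110 to 126 in HCN4F-TAC. The largest of their log2 fold changes was -0.24 for Psmb6 in WT (adjusted p = 0.205). Per kb, Psmb8 made up 6.37% ± 0.72 (SD, n = 4) of the Psmb5 and Psmb8 sum in WT-Sham, 7.78% ± 0.60 (n = 4) in HCN4F-Sham, 5.05% ± 1.66 (n = 2) in WT-TAC and 7.05% ± 0.38 (n = 4) in HCN4F-TAC. Psmb9 made up 2.66% to 3.48% of its pair with Psmb6 on group average, and Psmb10 21.1% to 24.1% of its pair with Psmb7. These shares are of transcripts and do not give the composition of assembled particles.

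The remaining core subunits formed a narrow band. In WT, 13 of the 14 constitutive core genes had a negative log2 fold change after TAC, with a median of -0.15, from -0.24 (Psmb6) to 0.01 (Psmb7), beside a median of -0.02 over all genes, and none of the 14 passed. In 9 of the 14 both WT-TAC libraries lay below all WT-Sham libraries, a pattern found in 20% of all genes. In HCN4F the core median was -0.07, with values from -0.20 (Psmb6) to 0.20 (Psma5) beside -0.01 over all genes, and none passed or separated the groups. When library totals alone set the scale, the core median in HCN4F was 0.03 and Psma5 was called, as given above. The 95% intervals of all 14 core genes lay within 0.5 on the log2 scale in both genotypes. The 7 alpha subunits had a median of -0.09 in WT and 0.00 in HCN4F, and the 4 noncatalytic beta subunits -0.18 and -0.10.

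Psma5, an alpha subunit, was the gene among the 14 constitutive core genes that differed most between the genotypes after TAC. It measured 31.5 to 32.2 CPM in WT-Sham and 28.8 to 33.1 in HCN4F-Sham. In WT-TAC it stood at 28.0 and 30.5 CPM, and in HCN4F-TAC at 37.9, 37.9, 31.6 and 37.4 CPM. Replicate 3 lay with the Sham libraries and the other HCN4F-TAC libraries above all the rest. The log2 difference between genotypes after TAC was 0.31 ± 0.09 (adjusted p = 0.177), and the TAC responses differed by 0.33 ± 0.12 (adjusted p = 0.466). Without HCN4F-TAC replicate 3 Psma5 was called in the former comparison, as the only member, beside 2.97% of all genes (0.111% with all libraries).

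In the cap, the edgeR fit over all groups called no subunit in any comparison. The 17 cap genes had a median log2 fold change of 0.01 in WT, from -0.21 (the ATPase Psmc5) to 0.35 (Psmd11), and of 0.09 in HCN4F, from -0.08 (Psmc3) to 0.17 (Psmd12). The 6 ATPases had medians of -0.09 and 0.01 and the 11 non-ATPase subunits 0.02 and 0.09. In WT, 9 of 17 cap genes had a positive sign, compared with 1 of 14 in the core, and in HCN4F the numbers were 12 of 17 and 6 of 14. When library totals alone set the scale, the cap median in HCN4F was 0.18, and the positive signs were 17 of 17 and 9 of 14 in HCN4F and 11 of 17 and 3 of 14 in WT. All 17 cap intervals lay within 0.5 on the log2 scale in HCN4F and 16 in WT, Psmd11 being the exception.

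**Figure D4:**
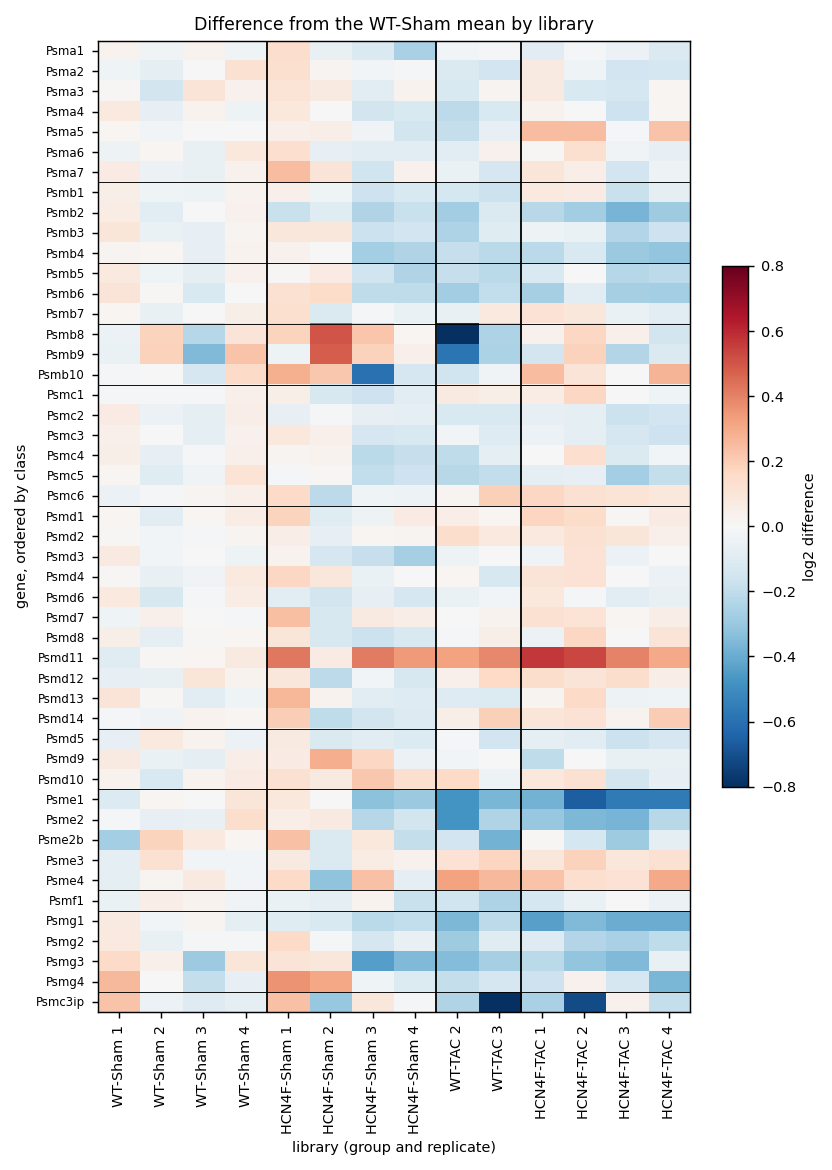
Log2 difference from the WT-Sham mean (colour scale) of 48 proteasome genes (rows, grouped by class; Psma8 is left out for its low counts) in the 14 libraries (columns). Psmd11 is positive in all libraries outside WT-Sham, Psme1 and Psme2 are negative in all TAC libraries, and most core and cap rows stay pale.

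Psmd11, a scaffold subunit of the cap lid known to set proteasome assembly in stem cells, had its lowest levels in WT-Sham. It measured 55.4, 59.6, 60.0 and 62.2 CPM in WT-Sham. In HCN4F-Sham it measured 79.4, 62.0, 79.2 and 75.0 CPM, in WT-TAC 74.2 and 77.3 CPM, and in HCN4F-TAC 87.8, 85.8, 78.2 and 73.1 CPM. Among the 10 libraries outside WT-Sham, HCN4F-Sham replicate 2 was the single library within the WT-Sham range. The log2 fold change of TAC in WT was 0.35 ± 0.10 (adjusted p = 0.056), and that of genotype in Sham was 0.32 ± 0.08 (adjusted p = 0.097). In HCN4F the TAC fold change was 0.14 ± 0.08 (adjusted p = 0.306), and the TAC response in HCN4F minus that in WT was -0.22 ± 0.13 (adjusted p = 0.636). The call in WT was made under 6 of 17 alternatives and the genotype call in Sham under 4 of 19, including the fit without HCN4F-Sham replicate 2 (0.39, adjusted p = 0.031). The TAC and genotype comparisons share the WT-Sham libraries, so they are not independent of each other. WT-Sham also stood apart for Psmb2 and Psmg1, in the other direction and without overlap. Psmb2 measured 57.6 to 63.5 CPM in WT-Sham and at most 57.1 CPM elsewhere. For Psmg1 these values were 15.0 to 16.6 CPM and at most 14.7 CPM.

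Assembly chaperones of the core were lower after TAC in sign, with 1 call. Psmg1 pairs with Psmg2 to build the alpha ring. Psmg1 measured 16.6, 15.5, 15.9 and 15.0 CPM in WT-Sham and 14.7, 14.5, 13.5 and 13.7 CPM in HCN4F-Sham. After TAC it measured 12.2 and 13.6 CPM in WT and 11.6, 12.3, 11.94 and 11.96 CPM in HCN4F. Neither genotype's TAC libraries overlapped its Sham libraries, a downward separation found in 20% of all genes in WT and 7.16% in HCN4F. The log2 fold change was -0.24 ± 0.07 in HCN4F (interval -0.39 to -0.08; adjusted p = 0.040) and -0.28 ± 0.09 in WT (adjusted p = 0.079), and the call in HCN4F was lost under 12 of 19 alternatives, among them the fits without any single HCN4F library except HCN4F-Sham replicate 3 (adjusted p from 0.054 to 0.091). Psmg2, Psmg3 and Psmg4 had negative log2 fold changes in both genotypes, from -0.32 (Psmg3 in WT) to -0.10 (Psmg3 in HCN4F), and none passed. The base chaperones Psmd5, Psmd9 and Psmd10 had values from -0.09 to 0.06 in WT and -0.20 to -0.06 in HCN4F, with no call.

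Psma8 was called higher in HCN4F at very low counts. It had 7, 18, 9 and 7 reads in the WT-Sham libraries and 4, 4, 8 and 10 reads in HCN4F-Sham. In WT-TAC there were 8 and 17 reads, and in HCN4F-TAC 12, 18, 23 and 17 reads. The HCN4F groups did not overlap on the CPM scale, with 0.151 to 0.302 CPM in Sham and 0.498 to 0.812 CPM in TAC, an upward separation found in 7.95% of all genes. The log2 fold change was 1.44 ± 0.37 in HCN4F (adjusted p = 0.014) and 0.17 ± 0.43 in WT (adjusted p = 0.858), and the difference between these responses did not pass (1.27 ± 0.57; adjusted p = 0.512). The call in HCN4F held under all 18 alternatives that tested the gene. The highest HCN4F-TAC level corresponded to 0.597% of the Psma7 and Psma8 sum per kb, so the common alpha subunit dominated in every library. Psmc3ip, which is no subunit, had log2 fold changes of -0.66 ± 0.26 in WT and -0.29 ± 0.21 in HCN4F and was not called.

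The genotype comparisons had no call among the members in the edgeR fit over all groups. In Sham hearts, 0 of 49 members passed the edgeR test (3 at an unadjusted p under 0.05, or 6.12%, against 15.2% of all genes), where 0.471% of all genes passed. DESeq2 on all groups called 1 member there, Psmd11, beside 2.24% of all genes. After TAC, 0 of 49 passed (2 at an unadjusted p under 0.05, or 4.08%, against 12.5% of all genes), where 0.111% of all genes passed. DESeq2 on all groups called 0 members after TAC, beside 1.53% of all genes. For the interaction of genotype and surgery, 0 of 49 members (2 at an unadjusted p under 0.05, or 4.08%, against 9.27% of all genes) and 0% of all genes passed. DESeq2 on all groups was also at 0 members for the interaction, beside 0.222% of all genes. The members' median absolute log2 difference was 0.06 in either genotype comparison, against 0.13 over all genes in Sham and 0.14 after TAC. Next to Psmd11, the members with the largest differences in Sham at a mean of at least 1 CPM were Psmb8 (0.23), Psmb9 (0.16), Psmb2 (-0.18), Psmg1 (-0.16) and Psmg3 (-0.15). After TAC these were Psmb8 (0.57), Psmc3ip (0.38), Psmb9 (0.34), Psme1 (-0.12), Psmg1 (-0.11) and Psmb2 (-0.10). For the interaction they were Psmc3ip (0.36), Psmb8 (0.34), Psma5 (0.33), Psmd11 (-0.22), Psmd10 (-0.19) and Psmd9 (-0.18). All 3 immunoproteasome subunits were higher in HCN4F-TAC than in both WT-TAC libraries, an arrangement seen in 11.3% of all genes with 4 libraries against 2, and none of the 3 passed the test.

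Genes that work with the proteasome were read from lists of the same pathway. Of 30 other proteasome proteins and regulators, 29 were tested. In WT-TAC 1 of the 29 was called, the ligase Ube3c, which extends ubiquitin chains on the proteasome and was higher (log2 fold change 0.48, adjusted p = 0.047), beside 4.54% of all genes. In HCN4F-TAC 3 of the 29 were called, 2 higher and 1 lower, beside 7.2% and 6.41% of all genes. Those higher were the importin Ipo9, a nuclear carrier of proteasomes (0.26, adjusted p = 0.013), and the shuttle factor Ubqln4 (0.28, adjusted p = 0.028). The median of this list was 0.05 in WT and 0.08 in HCN4F. Among 10 muscle ubiquitin ligases, none was called in WT, and in HCN4F the chaperone-linked ligase Stub1 was the 1 of 10 called, lower (-0.25, adjusted p = 0.018), beside 6.41% of all genes. Among 10 partners of the immunoproteasome in antigen processing, none was called in WT, and in HCN4F the transcription factor Irf8 was the 1 of 10 called, higher (0.51, adjusted p = 0.021), beside 7.2% of all genes. The median of these partners after TAC was -0.16 in WT (2 of 10 positive) and -0.03 in HCN4F (4 of 10). Between genotypes after TAC their median was 0.27 (8 of 10 positive), with no call.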

How the data were processed

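RNA of left ventricular tissue was sequenced on an Illumina platform. The authors deposited raw counts per gene (Ensembl identifiers with symbols) in a single table, with no normalization, and the submitters' processing notes name the build GRCm38. The aligner, the counter and the use of strand are not given in the sources used here. The table holds 14 libraries matched to a sample by name, and 2 further columns, whose names carry WT and TAC but match no sample here, were not used, so WT-TAC has 2 of the 4 animals the study describes. Replicate libraries of a group differed by more than sampling noise (chi-square per gene at least 6.1).

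Genes were filtered by edgeR's filterByExpr, scaled by TMM and fitted in a quasi-likelihood model with a mean per group over all 14 libraries (edgeR 4.0.16, limma 3.58.1, R 4.3.3), in place of the DESeq2 test of the study, which was run as an alternative (DESeq2 1.42.0). Benjamini-Hochberg adjustment ran over all 15292 genes tested, and a gene was called at an adjusted p under 0.05. SE was taken from the F statistic, and intervals are at 95%. CPM values are TMM-scaled. Lengths are those of the principal transcript in GENCODE M21, and promoter sequences are from RefSeq (GRCm38.p6). The intervals and counts cover the spread between animals at 22309914 to 35210939 counts per library.

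Genes were named by these rules: the catalytic pairs, Psme1 to Psme4, Psmf1, Psma8 and Psmb11 in all libraries; in each comparison up to 3 members with the largest rise and 3 with the largest fall among those called (among all tested where none was called) at a mean of at least 1 CPM; the extremes of each class; and list genes that passed, of which 1 is not reported here. Psmd2, Psme2b and the members that only an alternative called were named after their values were seen. The members, classes, lists and alternatives were chosen with earlier results of these data known. Alternatives covered the tool, the groups fitted, the scaling, the filter on low counts, robust estimation, the replicate number as a block, the fold threshold and leaving out each library.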

Additional observations from a re-analysis of the deposited data

Results flagged for a closer look

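The levels of 49 proteasome genes were checked for a library far from the others in each group of 4, which made 147 checks, and 9 were flagged (chance flags about 1 in 20). In HCN4F-TAC, replicate 3 was lowest for the alpha subunits Psma5 (31.6 CPM, the others 37.4 to 37.9) and Psma4 (64.3 CPM, the others 72.5 to 73.7), and replicate 2 was highest for the catalytic subunit Psmb6 (117.5 CPM, the others 103.9 to 104.3). In HCN4F-Sham, replicate 1 was highest for Psma6 (93.1 CPM, the others 79.8 to 81.1) and Psmd5 (13.5 CPM, the others at most 12.003), and replicate 2 was highest for the ATPase Psmc2 (91.5 CPM, the others 88.2 to 88.8). In WT-Sham, Psmb4 was lowest in replicate 3 (130.2 CPM, the others 137.8 to 139.2), Psmc1 was highest in replicate 4 (138.9 CPM, the others 133.1 to 133.7) and Psmc3ip was highest in replicate 1 (2.48 CPM, the others 1.95 to 2.03).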

How the results depend on the processing

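The count of members called after TAC in WT (1, beside 4.54% of all genes) was 4 with DESeq2 on all groups (7.82% of all genes) and with edgeR on the compared groups (13.6%). It was 5 with DESeq2 on the compared groups (13.1%) and 3 without a filter (2.92%). With DESeq2 size factors (4.77%), without robust estimation (4.39%) and with the log2 threshold of 1 (0.706%) it was 0. It ran from 0 to 3, beside 1.05% to 6.64% of all genes, when 1 library outside WT-TAC was left out. In HCN4F (4, beside 13.6% of all genes) it was 2 with edgeR (8.98%) or DESeq2 (12.2%) on the compared groups and without a filter (6.79%). It was 8 with library totals alone (7 higher, 1 lower, beside 11.9% and 3.67% of all genes) and 1 with the log2 threshold (2.75%). It ran from 2 to 5, beside 8.73% to 15.6% of all genes, when 1 library outside WT-TAC was left out. For the genotype in Sham (0) it was 1, Psmd11, with DESeq2 on all (2.24% of all genes) or on the compared groups (2.88%), without a filter (0.735%) and without HCN4F-Sham replicate 2 (0.347%). After TAC (0) it was 1, Psma5, without HCN4F-TAC replicate 3 (2.97%). Leaving out 1 library outside WT-TAC gave 0 to 1 in both genotype comparisons. The interaction count was 0 under every alternative run. With the replicate number as a block, 0 members were called in WT, beside 1.47% of all genes. In HCN4F 2 were called, Psma8 and Psme1, beside 12.9% of all genes. Same-numbered libraries did not deviate together. Of 800 values recomputed for single genes and class medians, 38 lost the threshold and 18 passed it, with 0 reversed calls. Another 19 shifted by at least their SE, or for class medians by at least the median SE of the class. The other 725 were counted as unchanged, but size was not checked for genes called in both fits. The causes were not tested. WT-TAC has 2 libraries, and a fit without either rests on a lone library assumed to vary like the other groups.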
